A study of Mus musculus with 12 samples.

Results

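The E2F family of transcription factors was followed in medulloblastomas (MBs) and normal cerebellar samples of the mouse. Its 8 members, E2f1 to E2f8, were taken by gene name, and a member's value was the mean log2 level of the probe sets that map to that gene alone. They lie on chromosomes 2, 4, 13, 8, 3, 12, 10 and 7, in the order E2f1 to E2f8. They stood among 18193 genes measured on the same arrays. In all, 16 probe sets mapped to a single member and 14 entered the gene values. Those whose names end in _s_at or _x_at, which may pick up related transcripts, were set aside.

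E2F proteins bind a short DNA motif, mostly as dimers with a DP protein, and set the time at which genes for DNA replication and mitosis are transcribed. E2f1, E2f2 and E2f3 are the activators, which the retinoblastoma protein holds inactive until cyclin dependent kinases release them. E2f4 and E2f5 repress with the retinoblastoma relatives p107 and p130, E2f6 represses without any of these pocket proteins, and E2f7 and E2f8 are atypical repressors that bind DNA without a DP partner. In the cerebellum, granule neural progenitors divide after birth in response to Sonic hedgehog and then become neurons, and these progenitors are the cells from which Sonic hedgehog medulloblastoma is known to arise.

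Expression was measured on 12 arrays, each with its own number in the labels, taken here as 1 mouse each. They were 8 MBs, 2 samples of cerebellar granule progenitor cells (GNPs) and 2 of whole cerebellum. According to the study, the MBs grew in Nestin-Cre p53-/- mice carrying Xrcc4 c/- (MB_630, MB_794, MB_1187, MB_1197, MB_1207 and MB_1224) or Xrcc4 c/c (MB_706 and MB_1206), in which Cre is driven by the Nestin promoter in neural progenitors, p53 is lost in the whole animal and the end-joining factor XRCC4 is lost where Cre acted. The normal samples came from control animals that the study describes as matched in age and genotype, while the array labels give neither age nor genotype for any sample. The labels call the MBs tumor tissue, whereas the study also speaks of tumor cells and cultured several of these MBs, so whether the arrays measured tissue or cells is not settled here. The question of these comparisons is how the family stands in the tumors against the progenitors of their lineage and against the mostly postmitotic tissue.

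The arrays resembled each other in median level, which lay between 3.76 and 3.90 on the log2 scale. Tumor MB_706 stood apart in RNA quality: its control probe sets for Gapdh and beta-actin read 2.93 log2 units higher at the 3' than at the 5' end on average, where the remaining MBs gave 0.56 to 0.82 and the normal samples 0.15 to 0.52. Atoh1, which marks granule progenitors, averaged 11.95 in the MBs, 5.95 in the GNPs and 2.76 in the cerebellum. All 7 progenitor markers were higher in MBs than in GNPs, beside 18.7% of all genes. GNPs against cerebellum had 4 higher and 2 lower, beside 14.9% and 13.6% of all genes. Lower were Ccnd1 (4.78 in the GNPs, 7.30 in the cerebellum) and Gli1. Gli1, a Sonic hedgehog effector, was close to the lowest value of the scale in the GNPs (2.30), below its mean in the cerebellum (3.50). The GNP samples also held the mesenchymal marker list at a mean level of 6.84 to 6.98, against 4.56 to 4.76 in the cerebellum and 3.46 to 6.42 in the MBs. The microglial list mean was higher in the tumors, with 6.0 to 7.34 in the MBs, 3.26 to 4.22 in the GNPs and 5.20 to 5.28 in the cerebellum. Against GNPs 8 of 10 markers were higher in MBs (18.7% of all genes) and against cerebellum 5 of 10 (22.2%), with none called lower. P2ry12 gave -1.12 against cerebellum, with overlap of samples, and Trem2 was near the lowest value in every group. The means of other lists were highest in the cerebellum. Purkinje means were 10.45 to 10.58 there, 4.90 to 5.01 in the GNPs and 3.28 to 6.35 in the MBs. Oligodendrocyte means were 9.09 to 9.12, 4.14 to 5.49 and 3.06 to 5.01 in the same order. Granule neuron means were 10.73 to 10.85, 8.07 to 8.20 and 6.98 to 8.72, and astroglial means 8.69 to 8.75, 7.45 to 7.52 and 5.06 to 7.19. Single markers departed from these means. Gfap, an astroglial marker, averaged 9.02 in the GNPs, 5.01 in the cerebellum and 6.12 in the MBs. For GNPs against cerebellum 1 of 8 astroglial markers was higher (Gfap) and 3 lower, beside 14.9% and 13.6% of all genes. Of 9 granule neuron markers 1 was higher there (Zic2, by 1.34) and 5 lower. Tumor MB_630 had the highest Purkinje, oligodendrocyte, endothelial, mesenchymal and granule neuron means of all MBs. The part of RNA quality and of these other cells in the E2F differences was not tested, and in bulk samples fewer cells of a type and less RNA per cell cannot be told apart.

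Of the 8 members, 6 were higher in MBs than in GNPs (E2f1, E2f2, E2f3, E2f6, E2f7 and E2f8), and no member was lower. Of all genes, 37.3% were called in this comparison, 18.7% higher and 18.6% lower. Against whole cerebellum 6 members were again higher, E2f5 taking the place of E2f6, where 44% of all genes were called, 22.2% higher and 21.8% lower. GNPs had 3 members above cerebellum (E2f1, E2f2 and E2f7) and none called below, E2f6 lying just short of the threshold, beside 28.5% of all genes called, 14.9% higher and 13.6% lower. The median difference over the 8 members was 1.58 for MBs against GNPs, 2.14 for MBs against cerebellum and 0.57 for GNPs against cerebellum, with a median over all genes of 0 each time. Samples did not overlap, with the first group higher, for 7 members in MBs against GNPs, 6 in MBs against cerebellum and 6 in GNPs against cerebellum, which held for 21.2%, 24.3% and 31.5% of all genes. For E2f6 the GNPs lay below the cerebellum without overlap, as for 27.8% of all genes. The 3 comparisons use the same samples and are not independent of each other. A gene was called when limma's adjusted p, from 1 fit of the 3 groups across all genes, lay under 0.05.

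**Figure D1:**
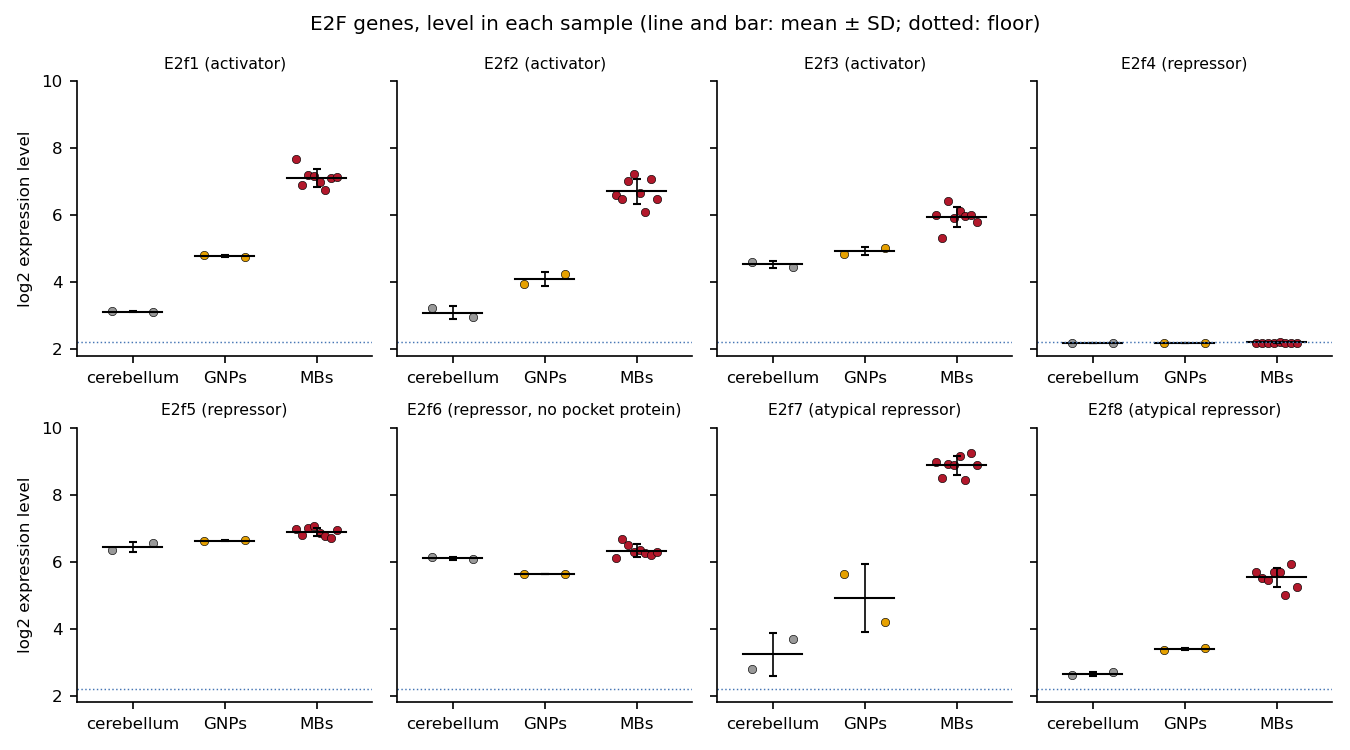
Log2 expression level (vertical axis) of each E2F gene in the 2 whole cerebellum, 2 GNP and 8 MB samples, 1 point per sample, with a line and bar for mean ± SD and a dotted line at the lowest value of the scale (2.2). The MBs lie clear of both normal groups for E2f1, E2f2, E2f3, E2f7 and E2f8, lie close to them for E2f5 and E2f6, and E2f4 sits on the dotted line in every group.

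The promoters of the members that rose are shown for the letters that E2F and cell cycle factors are known to read. RefSeq's promoter table (build GRCm38.p6, 250 bases before to 50 after each start) listed 8 promoters for 6 members. E2f4 and E2f5 had none listed. They were searched on both strands for the E2F consensus, spelled as TTTCCCGC, TTTCGCGC, TTTGCCGC or TTTGGCGC, and for the cell cycle homology region, TTTGAA. The E2F consensus stood in promoters of E2f2, E2f3 and E2f7, and in 2.26% of the 32817 mouse promoters searched. The homology region stood in listed promoters of E2f2, E2f3 and E2f8, for E2f2 only in the window of a downstream start. It stood in 17.89% of all promoters. The 250 bases before the start are given for E2f3, E2f7 and E2f8, and 30 bases around the match for E2f2, whose match lies past the start at positions 40 to 47. All are written 5' to 3' along the gene's own strand with the matched letters in capitals.
E2f2 site, chr4:136172294-136172323, + strand: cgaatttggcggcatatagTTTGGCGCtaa
E2f3 promoter, chr13:29986064-29986313, - strand: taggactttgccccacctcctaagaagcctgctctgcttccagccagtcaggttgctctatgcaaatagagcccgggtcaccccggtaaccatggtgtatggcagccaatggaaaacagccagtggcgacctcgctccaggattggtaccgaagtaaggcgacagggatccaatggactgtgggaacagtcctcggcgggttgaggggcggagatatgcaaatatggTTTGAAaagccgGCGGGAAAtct
E2f7 promoter, chr10:110745189-110745438, + strand: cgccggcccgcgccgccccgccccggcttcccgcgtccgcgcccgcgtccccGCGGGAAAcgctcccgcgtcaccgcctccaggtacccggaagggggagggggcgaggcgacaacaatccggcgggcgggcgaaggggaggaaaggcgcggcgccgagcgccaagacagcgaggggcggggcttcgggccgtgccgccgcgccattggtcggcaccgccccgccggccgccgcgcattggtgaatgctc
E2f8 promoter, chr7:48881597-48881846, - strand: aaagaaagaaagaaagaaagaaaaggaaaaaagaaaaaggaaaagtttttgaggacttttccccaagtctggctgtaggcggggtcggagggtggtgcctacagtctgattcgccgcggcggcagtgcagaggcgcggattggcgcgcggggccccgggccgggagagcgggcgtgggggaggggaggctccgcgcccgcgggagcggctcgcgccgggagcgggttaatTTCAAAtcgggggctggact
In E2f3 the homology region (positions -23 to -18) was followed within the same stretch by an E2F word on the opposite strand (positions -11 to -4), read here as GCGGGAAA. E2f7 had its E2F word, also on the opposite strand, at -198 to -191. The homology region of E2f8 was on the opposite strand at -20 to -15, read here as TTCAAA. That of E2f2 lay at -31 to -26 of a start downstream of the one shown. No match of either kind was in the listed window of E2f1 or in that of E2f6. Where each listed window lies within its gene was not checked, so sites elsewhere in these genes could be missed. The missing match is therefore no evidence that the promoter of E2f1 or of E2f6 lacks such a site. The matches are letters only, with no binding measured in these samples.

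The activators rose in MBs against both normal groups. E2f1, which drives entry into S phase and can also trigger apoptosis, had log2 levels of 6.75, 7.14 and 7.67 (lowest, median and highest of 8 MBs), of 4.82 and 4.77 in the GNPs and of 3.13 and 3.11 in the cerebellum. These groups did not overlap and stood in the order cerebellum, GNPs, MBs. MBs exceeded GNPs by 2.33 log2 units (SE 0.18, 5.02-fold, adjusted p = 7.02e-06) and GNPs exceeded cerebellum by 1.67 (SE 0.23, at least 3.18-fold, adjusted p = 0.000454). Against cerebellum the MBs were at least 16-fold higher, by 4.00 log2 units (SE 0.18, adjusted p = 8.15e-08). Both are lower bounds because probe set 1417878_at lay within 0.5 of the lowest value in cerebellum. Both E2f1 probe sets in the gene value moved alike, by 2.29 and 2.36 for MBs against GNPs. A set outside the gene value, 1447840_x_at, stayed at or next to the lowest value on all arrays. With all 3 sets averaged the difference was 1.55.

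E2f2, another activator bound by the retinoblastoma protein, read 6.11, 6.65 and 7.24 in the MBs, 3.94 and 4.25 in the GNPs and 3.24 and 2.95 in the cerebellum. Again every MB lay above every GNP sample, and both GNP samples above the cerebellum. The difference was 2.62 for MBs against GNPs (SE 0.26, 6.16-fold, adjusted p = 3.44e-05). It was 3.62 against cerebellum (SE 0.26, adjusted p = 2.19e-06), at least 12.3-fold, since probe set 1455790_at sat at the lowest value in both cerebellum samples. GNPs exceeded cerebellum by 1.0 (SE 0.33, adjusted p = 0.049), a call at the edge of the threshold that was lost on leaving out any 1 of the 4 normal samples (adjusted p = 0.089 to 0.217). It was also lost without any 1 of tumors MB_1187, MB_1197, MB_1206, MB_1224 and MB_794 (adjusted p = 0.0566 to 0.0674), in the 2-group fit (adjusted p = 0.0681) and on the brightest probe set (0.43, adjusted p = 0.313).

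E2f3, whose gene makes a long and a short protein from different starts, changed less on its gene value, with 5.32, 5.99 and 6.43 in the MBs, 4.86 and 5.02 in the GNPs and 4.61 and 4.47 in the cerebellum. The groups did not overlap. MBs exceeded GNPs by 1.01 (SE 0.22, 2.01-fold, adjusted p = 0.00428) and cerebellum by 1.41 (SE 0.22, 2.65-fold, adjusted p = 0.000407), while GNPs against cerebellum gave 0.40 (SE 0.27, adjusted p = 0.35, interval -0.22 to 1.01). The gene value averages a measured probe set with one that had next to no signal. On probe set 1434564_at alone the MBs (8.37 to 9.996) exceeded the GNPs (7.47 and 7.74) by 1.89 (adjusted p = 0.00228 over 45037 probe sets) and the cerebellum by 2.69 (adjusted p = 0.000173). The other set, 1427462_at, stayed between 2.24 and 2.87 on all 12 arrays. Tumor MB_1197 was the lowest MB for E2f3 and tumor MB_1206 the highest.

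The members that repress with pocket proteins moved little on their gene values or could not be read. E2f4, the most widely expressed E2F of resting cells, is represented by 1 probe set, which stood at the lowest value of the scale, 2.2, on 11 of the 12 arrays and at 2.21 in tumor MB_1224. It therefore gave no measurement of E2f4 in any group, and its difference of 0.00 carries no information on the gene.

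E2f5, a partner of p130 in quiescent cells, read 6.70, 6.91 and 7.08 in the MBs, 6.62 and 6.65 in the GNPs and 6.34 and 6.55 in the cerebellum. The MBs lay just above both normal groups without overlap. The difference from GNPs, 0.26 (SE 0.10, interval 0.04 to 0.48), missed the threshold (adjusted p = 0.0616), and that from cerebellum, 0.45 (SE 0.10, 1.37-fold, adjusted p = 0.00364), passed it. The latter was lost without cerebellum sample WC_2646 (0.34, adjusted p = 0.0683).

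These small values are the mean of probe sets that moved in opposite directions. Probe set 1417444_at was higher in MBs (8.54 to 9.12) than in GNPs (7.35 and 7.10) by 1.61 (3.06-fold, adjusted p = 7.36e-06), and higher than in cerebellum by 1.44 (2.72-fold, adjusted p = 8.87e-06). Probe set 1447625_at was lower in MBs (4.48 to 5.25) than in GNPs (5.88 and 6.20), with a difference of -1.09 (adjusted p = 0.00162), and gave -0.54 against cerebellum (adjusted p = 0.0532). A set outside the gene value, 1460207_s_at, rose like the first, by 1.12 against GNPs (adjusted p = 5.39e-06) and 1.05 against cerebellum (adjusted p = 4.4e-06). With all 3 sets averaged, E2f5 exceeded GNPs by 0.55 (SE 0.084, adjusted p = 0.000549), so that the call on E2f5 depends on which of its probe sets is read.

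E2f6, which represses as part of a Polycomb complex, read 6.12, 6.29 and 6.69 in the MBs, 5.64 and 5.64 in the GNPs and 6.14 and 6.08 in the cerebellum. It was the 1 member whose GNP samples lay below all others. MBs exceeded GNPs by 0.70 (SE 0.13, 1.62-fold, adjusted p = 0.00153) but overlapped the cerebellum, with a difference of 0.23 (SE 0.13, adjusted p = 0.188, interval -0.05 to 0.51). GNPs against cerebellum gave -0.47 (SE 0.16, adjusted p = 0.0536), which passed as lower without tumor MB_1187 (adjusted p = 0.0447) or MB_1197 (adjusted p = 0.0101) and in the 2-group fit (adjusted p = 0.0145). Among its probe sets, 1448835_at differed by 0.90 between MBs and GNPs (adjusted p = 0.0193) and 1437914_at by 0.50 (adjusted p = 0.442). Within the MBs the second set stood at 4.21 to 4.68 in tumors MB_1197, MB_1206 and MB_1207 and at 3.28 to 3.54 in the other 5.

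**Figure D2:**
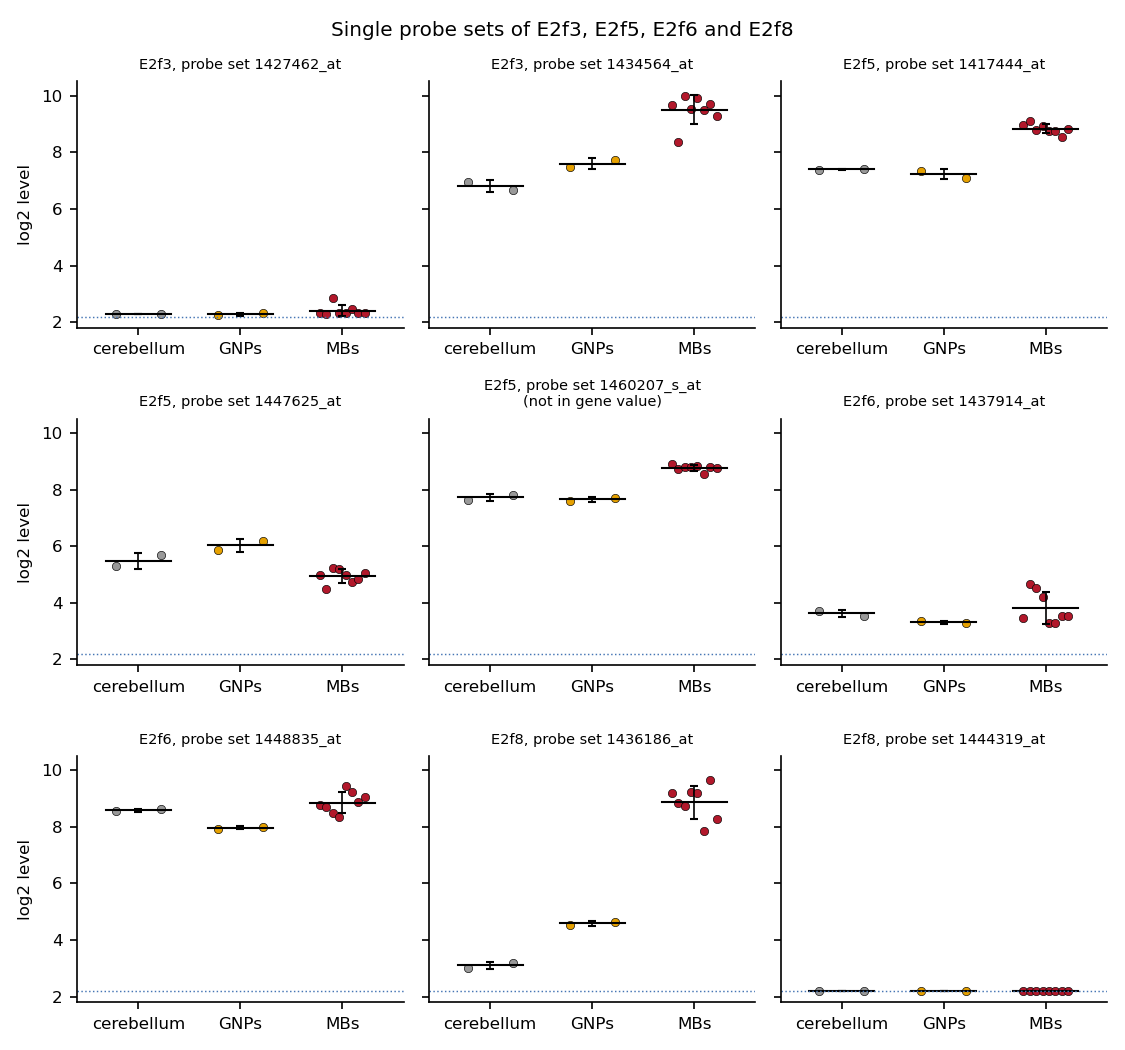
Log2 level (vertical axis) of single probe sets of E2f3, E2f5, E2f6 and E2f8 in the 2 cerebellum, 2 GNP and 8 MB samples, 1 point per sample, with mean ± SD and a dotted line at the lowest value (2.2). Of the E2f5 sets, 1417444_at and 1460207_s_at are higher in the MBs and 1447625_at is lower, and one set each of E2f3 (1427462_at) and E2f8 (1444319_at) lies at or near the dotted line throughout.

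Both atypical repressors rose in the MBs, E2f7 with the largest difference of all gene values and E2f8 with the largest of all member probe sets on the 1 set that gave signal. E2f7, which with E2f8 is known to switch off E2F target genes late in S phase and is itself an E2F target, read 8.46, 8.91 and 9.24 in the MBs, 5.64 and 4.21 in the GNPs and 2.79 and 3.69 in the cerebellum. No MB came near either normal group, and the 2 samples of each normal group lay far apart. MBs exceeded GNPs by 3.96 (SE 0.36, 15.5-fold, adjusted p = 1.75e-05; 3.24 without CGNP_2705 and 4.68 without CGNP_2698) and cerebellum by 5.64 (SE 0.36, 50-fold, adjusted p = 8.56e-07). GNPs exceeded cerebellum by 1.68 (SE 0.46, adjusted p = 0.0197), a call lost without GNP sample CGNP_2698 (0.97, adjusted p = 0.138) or without cerebellum sample WC_2646 (1.23, adjusted p = 0.148).

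E2f8 read 5.02, 5.60 and 5.93 in the MBs, 3.37 and 3.42 in the GNPs and 2.61 and 2.70 in the cerebellum on its gene value. The groups did not overlap. MBs exceeded GNPs by 2.14 (SE 0.20, adjusted p = 2.05e-05) and cerebellum by 2.88 (SE 0.20, at least 7.35-fold, adjusted p = 1.54e-06). One of its 2 probe sets, 1444319_at, held 2.2 on every array. This lowers each difference of the gene value and brings its cerebellum mean near the lowest value. On the other set, 1436186_at, the MBs (7.84 to 9.66) exceeded the GNPs (4.53 and 4.64) by 4.28 (SE 0.40, 19.5-fold, adjusted p = 2.6e-05). The same set differed from cerebellum (3.03 and 3.20) by 5.76 (SE 0.40, 54.1-fold, adjusted p = 1.85e-06) and, for GNPs against cerebellum, by 1.47 (adjusted p = 0.0638). Read from their responsive probe sets, E2f7 and E2f8 therefore differed between MBs and GNPs by 3.96 and 4.28.

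An exact permutation test of each single member, two-sided, gave p = 0.0222 for MBs against GNPs for all members but E2f4, which is the smallest value that 8 against 2 samples allow. For MBs against cerebellum it gave the same p for all but E2f4 and E2f6 (exact p = 0.133 for E2f6). Between the pairs of normal samples no p below 0.333 can be reached. The p-values measure the spread between these arrays.

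**Figure D3:**
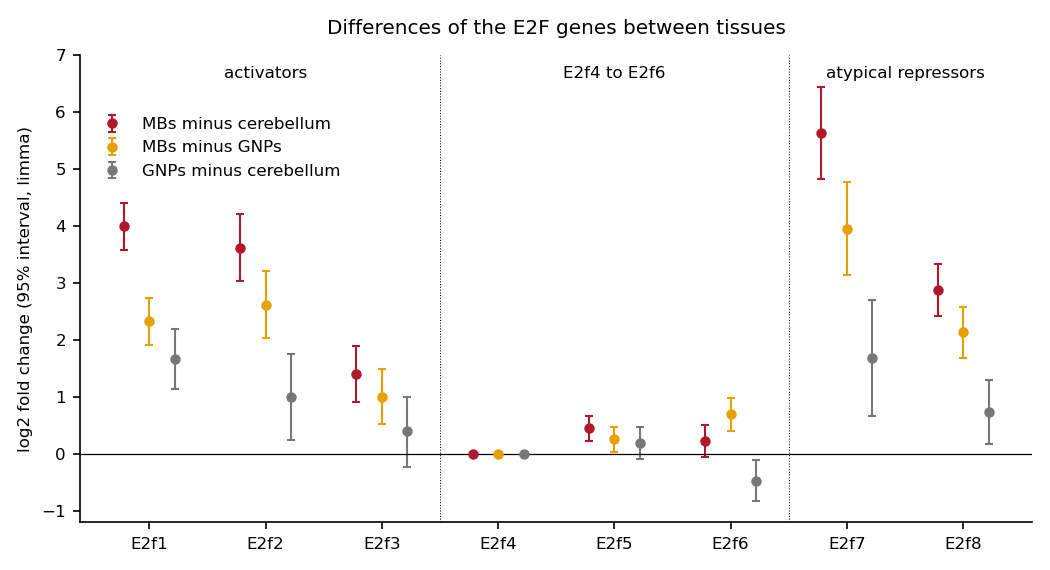
Log2 fold change (vertical axis) of each E2F gene for MBs minus cerebellum, MBs minus GNPs and GNPs minus cerebellum, with 95% intervals from limma. E2f7 lies highest in each comparison with MBs, at 5.64 and 3.96, while E2f4 to E2f6 stay under 1.

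Activators were set against repressors as differences from the cerebellum mean, since levels of different probe sets cannot be compared. The 3 activators averaged 3.01 ± 0.24 in the MBs (SD, n = 8) and 1.02 in the GNPs. The 5 repressors averaged 1.84 ± 0.11 and 0.43, a mean in which the unmeasured E2f4 counts as 0. Without E2f4 they averaged 2.3 in the MBs and 0.54 in the GNPs. Activators led the 5 repressors by 1.17 ± 0.18 in the MBs (0.71 without E2f4), from 0.84 in tumor MB_1197 to 1.41 in tumor MB_1206, and by 0.39 and 0.80 in the GNP samples.

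The repressors were not 1 group in these numbers. E2f4, E2f5 and E2f6 averaged 0.23 ± 0.07 in the MBs and -0.09 in the GNPs with E2f4 as 0, and E2f5 and E2f6 alone 0.34 and -0.14, while E2f7 and E2f8 averaged 4.26 ± 0.27 and 1.21. The lead of activators over repressors between MBs and GNPs was 0.57 with all 5 repressors, 1.67 with E2f4 to E2f6 alone, and -1.06 with E2f7 and E2f8 alone. It was 0.22 without E2f4, and -0.019 when all probe sets near the lowest value were left out, which removes E2f4 and also 1 probe set each of E2f3 and E2f8. Which group led therefore depended on the repressors counted, and no test was made of a score over the members.

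Across the 8 MBs the 7 members other than E2f4 varied by 0.38 (E2f5) to 1.13 (E2f2) log2 units between lowest and highest. Tumor MB_630 was the lowest MB for E2f1, E2f2, E2f7 and E2f8, and was also the MB with the highest means of the Purkinje, oligodendrocyte, endothelial, mesenchymal and granule neuron lists. Tumor MB_706, with its large 3' to 5' difference, was the highest for E2f7 (9.24) and E2f8 (5.93) and the lowest for E2f5 (6.70). E2f7 and E2f8 were correlated over the tumors (Pearson's r = 0.76, Spearman's rho = 0.74, n = 8), with r = 0.75 without MB_630 and MB_1197. That omission kept MB_706, the highest tumor for both genes. A correlation without both MB_630 and MB_706 was not computed, so how far the pair rests on these tumors is not known. E2f2 went with E2f8 (r = 0.76, rho = 0.76) and with E2f7 (r = 0.65, rho = 0.69), falling to 0.54 and 0.58 without MB_630 and MB_1207, again with MB_706 kept. The most negative pair by Pearson's r was E2f1 with E2f6 (r = -0.45, rho = -0.26), and by Spearman's rho E2f6 with E2f8 (r = -0.15, rho = -0.38). All 21 pairs share the same tumors and arrays, and the values are descriptions.

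**Figure D4:**
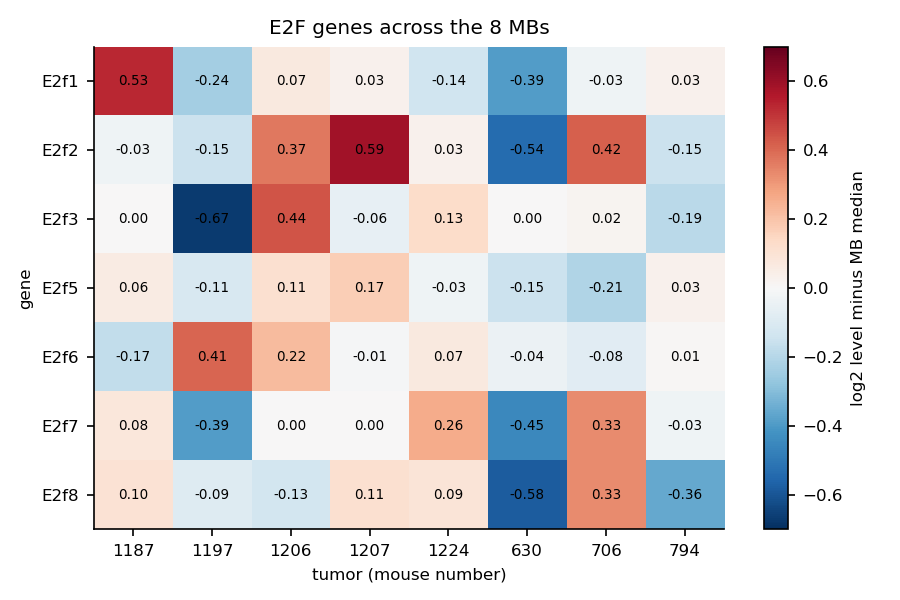
Log2 level minus the median of the 8 MBs (colour and printed value) for 7 E2F genes, E2f4 left out, in each MB, named by mouse number. Tumor MB_630 is blue for E2f1, E2f2, E2f7 and E2f8, with -0.39, -0.54, -0.45 and -0.58, tumor MB_1187 stands out for E2f1 at 0.53, and E2f6 is highest in tumor MB_1197 at 0.41.

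Most partners of the family were also higher in the MBs, by differences given here on the log2 scale. Of 5 dimerization partners and pocket proteins, 4 were higher in MBs than in GNPs and none lower, with a median of 1.25, beside 18.7% of all genes higher. Tfdp1, the main DP partner, averaged 11.54 in MBs, 10.29 in GNPs and 9.66 in cerebellum, with 1.25 between MBs and GNPs (SE 0.14, adjusted p = 8.56e-05). Tfdp2 differed by 1.22 (SE 0.20, adjusted p = 0.000723). Rbl1, which encodes p107 and is known as an E2F target, rose by 2.2 against GNPs (SE 0.27, adjusted p = 0.000127) and by 2.0 against cerebellum (adjusted p = 0.000168). Rbl2, which encodes p130, rose by 1.83 against GNPs (SE 0.41, adjusted p = 0.00532) and gave 0.60 against cerebellum with overlap (adjusted p = 0.304). Rb1 itself differed by 0.13 between MBs and GNPs (SE 0.07, adjusted p = 0.217) and was 0.65 above cerebellum (adjusted p = 5.09e-05). Against cerebellum 4 of the 5 were higher, beside 22.2% of all genes. For GNPs against cerebellum 2 were, Tfdp1 (0.62, adjusted p = 0.0289) and Rb1 (0.52, adjusted p = 0.00221), beside 14.9% of all genes, and 1 on leaving out any of the 4 normal samples.

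The MuvB core joins E2f4 or E2f5 and p107 or p130 in the DREAM complex of resting cells, and later joins Mybl2 and Foxm1 to activate mitotic genes. Of these 7 genes, 6 were higher in MBs than in GNPs and 5 higher than in cerebellum, beside 18.7% and 22.2% of all genes. The activating partners changed most: Mybl2 was 3.26 above GNPs (SE 0.33, 9.59-fold, adjusted p = 3.68e-05), and Foxm1 2.40 (SE 0.29, at least 5.28-fold, adjusted p = 0.00012), with GNPs near the lowest value. Neither differed detectably between GNPs and cerebellum (-0.19 with adjusted p = 0.942, and -0.05 with adjusted p = 1). Among the core genes, Lin9 rose by 1.87 (adjusted p = 5.47e-05), Lin54 by 1.42 (adjusted p = 8.72e-05), Rbbp4 by 0.59 (adjusted p = 0.00207) and Lin52 by 0.58 (adjusted p = 0.029) against GNPs. Lin37 gave -0.86 (adjusted p = 0.0716), the only negative difference among these genes against GNPs. The count called lower, none in the main fit, was 1 with the level filter, without tumor MB_794 or without probe sets near the lowest value.

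The 9 measured Polycomb partners of E2f6 were called at shares near those of all genes against GNPs. Against GNPs 2 were higher, Max (1.66, adjusted p = 6.69e-05), which dimerizes with Mga, and Mga itself (0.62, adjusted p = 0.000728), and Yaf2 was lower (-0.91, adjusted p = 0.00246). Their median was 0.30, beside 18.7% of all genes higher and 18.6% lower. The count higher was 4 of 9 without tumor MB_630, with array weights, with the level filter or without probe sets near the lowest value. For GNPs against cerebellum 3 of the 9 were higher and 2 lower (14.9% and 13.6% of all genes), Max among the lower (-0.85, adjusted p = 0.0214), and the count higher was 1 on leaving out any of the 4 normal samples. MBs against cerebellum had 4 higher and none lower (22.2% and 21.8% of all genes).

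Of 10 genes that act on E2F proteins after translation, 4 were higher and 2 lower in MBs than in GNPs (18.7% and 18.6% of all genes). Against cerebellum 5 were higher and 3 lower (22.2% and 21.8%). The shares called lower lay near those of all genes. Skp2, part of a ubiquitin ligase that degrades E2F1 and is itself an E2F target, rose by 2.41 (SE 0.21, adjusted p = 1.41e-05), and Cdc20, an activator of the anaphase promoting complex, by 3.27 (SE 0.22, adjusted p = 2.36e-06). The F-box genes Fbxw7 (-1.08, adjusted p = 0.000228) and Btrc (-0.74, adjusted p = 4.34e-06) were lower than in GNPs.

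Targets known to be under E2F control in the G1 to S transition were higher in MBs almost throughout. Of 37 measured, 35 were higher than in GNPs and 37 higher than in cerebellum, with medians of 2.52 and 2.91, beside 18.7% and 22.2% of all genes. Mcm2, a subunit of the replicative helicase, averaged 10.17 in MBs, 4.15 in GNPs and 4.10 in cerebellum (6.01 against GNPs, SE 0.25, adjusted p = 9.09e-08), and Pole, the catalytic subunit of the leading strand polymerase, differed by 5.51 (SE 0.16, adjusted p = 7.47e-09). The exceptions against GNPs were Dck (0.22, adjusted p = 0.355) and Rrm1 (0.85, adjusted p = 0.0888), which act in nucleotide supply. For GNPs against cerebellum 18 of 37 were higher and 2 lower, with a median of 0.76, beside 14.9% and 13.6% of all genes. The lower genes were Ccne2 (-1.95, adjusted p = 0.000332) and Prim1 (-0.87, adjusted p = 0.00629). In cerebellum 10 of the 37 were near the lowest value.

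All 23 measured targets of the G2 to M phase were higher in MBs than in GNPs and than in cerebellum, with medians of 3.40 and 4.88, beside 18.7% and 22.2% of all genes. Kif20a, a kinesin of cytokinesis, was 5.12 above GNPs (SE 0.21, adjusted p = 7.14e-08) and Aurkb, a mitotic kinase, 4.49 (SE 0.29, adjusted p = 1.94e-06). GNPs exceeded cerebellum in 18 of 23, beside 14.9% of all genes, although 13 of the 23 were near the lowest value in cerebellum. Among the MBs, tumor MB_630, lowest for 4 E2F genes, also had the lowest mean level of both target lists, 8.11 for G1/S and 7.98 for G2/M, against highest means of 8.51 and 8.67.

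Of 7 measured proapoptotic genes known as targets of E2F1, 1 was higher and 1 lower in MBs than in GNPs (14.3% each way), near the 18.7% and 18.6% of all genes, with a median of 0.08. The count higher was 2 with all or the brightest probe sets and without tumor MB_706, 3 against pooled normals and 0 with the level filter. Hrk rose from near the lowest value (1.56, at least 2.95-fold, adjusted p = 0.000437) and Bcl2l11, which encodes BIM, was lower (-0.69, adjusted p = 0.00991), a call lost without either GNP sample, on the brightest probe set and against pooled normals, while Bbc3, Apaf1, Pmaip1, Bid and Trp73 did not pass, Trp73 being near the lowest value in every group. Against cerebellum 5 of 7 were higher in MBs and 4 of 7 in GNPs (22.2% and 14.9% of all genes), Bcl2l11 by 1.58 (adjusted p = 3.89e-05) and 2.27 (adjusted p = 3.9e-05).

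**Figure D5:**
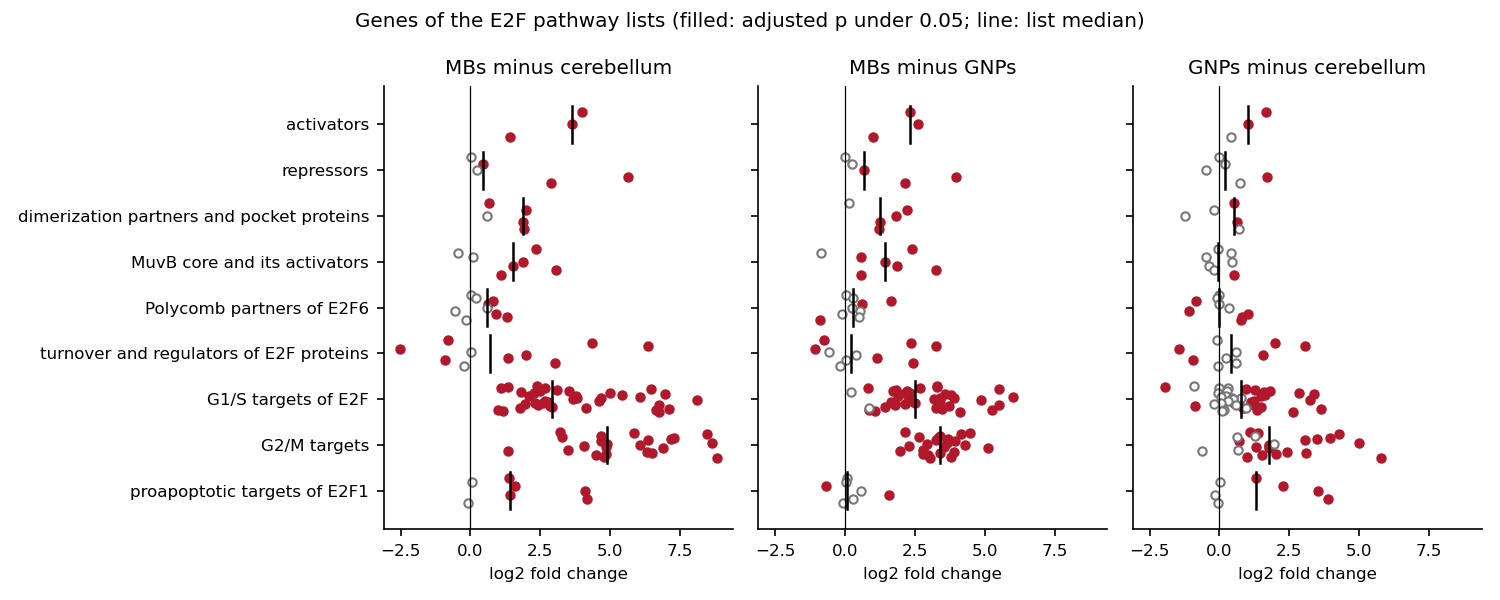
Log2 fold change (horizontal axis) of each gene of the E2F lists, in 3 panels for MBs minus cerebellum, MBs minus GNPs and GNPs minus cerebellum. Filled points have an adjusted p under 0.05 and the upright line is the list median. The 2 target lists lie to the right of 0 in both MB panels, with medians of 2.91 and 4.88 against cerebellum, and the proapoptotic list centres on 0.08 against GNPs.

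Genes whose levels most resembled each member over the 12 samples were then sought, as a description over samples that share the 3 groups. E2f1 was most like Uhrf1 (Pearson's r = 0.995), Cdk2 (0.994) and Mbtd1 (0.993), of which Uhrf1 and Cdk2 are on the G1/S list. E2f2 was most like Ncapd2 (0.993), a condensin subunit, Pus7l (0.992) and Espl1 (0.992), which encodes separase. E2f8 was also most like Espl1 (0.997), then Coa7 (0.996) and Efs (0.995), and E2f7 like Cklf (0.995), Actl6a (0.993) and Nup43 (0.992). The nearest genes of the others were less close. E2f3 had Zfp184, Psmg1 and Msl3 (0.96 each), E2f5 had Brd3 (0.949), Pgam5 (0.947) and Nasp (0.942), and E2f6 had Alox5ap (0.946), a gene of leukocytes, Urod (0.926) and Rev1 (0.919). E2f4 had no range to compare. Each nearest gene of E2f1, E2f2, E2f3, E2f5, E2f7 and E2f8 stood in the order cerebellum, GNPs, MBs. The means of these members have that order, so genes picked by correlation with them largely had to follow it.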

How the data were processed

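RNA from 12 samples was hybridized to Affymetrix mouse expression arrays. The authors processed the raw files with the R library affy and normalized them with GCRMA, which adjusts for probe sequence and leaves unbound probe sets at a common lowest value (2.2 here), and the deposited table holds log2 values of 45101 probe sets. The number of arrays limits the precision. Probe sets were named with the platform annotation: 34945 had 1 gene, 932 several and 9160 none, and 64 were controls. A gene's value was the mean of its single-gene sets, _s_at and _x_at sets being used only where no other existed (290 genes). Groups came from the sample labels, and replicates are the numbers in those labels, taken as mouse numbers.

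All 18193 genes were fitted with limma 3.58.1 in R 4.3.3 (lmFit and eBayes, 3 groups, 12 samples), p-values being adjusted by Benjamini-Hochberg across all of them and called under 0.05. The test was checked on simulated data. Single members were also tested by exact permutation over samples. A gene whose group mean lay within 0.5 of the lowest value was treated as giving a bound. Alternatives were each sample left out, all single-gene probe sets, the brightest probe set, quantile normalization or median shift on top, array weights, a level filter, pooled normals, 2-group fits and the methods' t-test. Also planned were a limma fit with its trend and robust settings, and E2f4 to E2f6 alone as the repressors. Those added after seeing the data left out probe sets near the lowest value, left out E2f4, or took E2f7 and E2f8 alone as the repressors.

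Named genes were all members, all partners, pocket proteins and MuvB genes, the 2 largest rises and falls past the test against GNPs in each other list, and the 3 genes most correlated with each member. Other genes named were chosen after their values were seen. Members and lists were chosen with earlier results of these data known. Some genes of the lists are not reported here, and counts are over the measured genes. Protein sequences were not analysed here.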

Additional observations from a re-analysis of the deposited data

How the results depend on the processing

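For single members, 500 of the member values under the 23 alternatives and omissions kept direction and side of the threshold, 17 gained a call, 17 lost one and 1 changed sign: E2f5 between GNPs and cerebellum, which was -0.07 on its brightest probe set. The 500 include the values of E2f4, which had no signal and so say nothing on stability. E2f5 between MBs and GNPs passed with the brightest set (1.12), with array weights (0.27, adjusted p = 0.0498), with both normal groups pooled (0.36) and without tumor MB_706 (0.29, adjusted p = 0.0314). E2f6 passed against pooled normals (0.46, adjusted p = 0.0155). The calls on GNPs against cerebellum were the least stable: leaving out 1 sample gave 1 to 4 members called in place of 3 (1 without GNP sample CGNP_2698 or cerebellum sample WC_2646), and the 2-group fit lost E2f7 (adjusted p = 0.273) and E2f2 (adjusted p = 0.0681) and gained E2f8 (adjusted p = 0.0157) and, as lower, E2f6 (adjusted p = 0.0145). The methods' t-test changed the same 4 calls (adjusted p = 0.312, 0.107, 0.0388 and 0.0368). With 1 sample left in a group, its spread was taken from the other groups. Leaving out 1 sample gave 6 to 7 members for MBs against GNPs and 5 to 6 for MBs against cerebellum.

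The lead of activators over repressors moved with the probe sets and the grouping. For MBs against GNPs (0.57) it was 0.26 with all single-gene sets, 0.20 with the brightest, 0.22 without E2f4, 1.67 with E2f4 to E2f6 as the repressors, -0.019 without sets near the lowest value and -1.06 with E2f7 and E2f8, and 0.37 to 0.78 with 1 sample left out. For MBs against cerebellum (1.17) the same changes gave 0.69, 0.58, 0.71, 2.78, 0.42 and -1.25. For GNPs against cerebellum (0.60) the brightest set gave 0.38, E2f4 to E2f6 gave 1.12, E2f7 and E2f8 gave -0.19, and 1 sample left out gave 0.39 to 0.80. Averages that include probe sets without signal are smaller by construction, and other causes were not tested. Over all genes, a filter on a mean level above 5 cut the genes lower in MBs from 3389 to 2199 against GNPs and from 3966 to 2276 against cerebellum, and those lower in GNPs than cerebellum from 2477 to 1414. The methods' t-test gave 1463 higher and 1384 lower in GNPs against cerebellum, where limma gave 2703 and 2477. No paired analysis was possible because the groups share no numbers in their labels. Without depth counts, the lowest value of the scale sets what can be seen, and E2f4 was not measurable.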
